A study of Mus musculus with 7 samples.

Results

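The C/EBP family was followed at 5 of its genes, Cebpa, Cebpb, Cebpd, Cebpe and Cebpg, with the inhibitory relative Ddit3 kept among the partners. Every distinct peak that overlapped one of these genes, or lay within 50 kb of either gene end (mm10), was taken. This gave 112 peaks of the 105978 in 5 peak lists. The lists come from CUTAC, an antibody-guided tagmentation assay in low salt, which cuts accessible DNA beside a histone mark. The cells were cMoPs, bone marrow progenitors of the mouse that are committed to become monocytes.

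All 5 libraries came from mice described by the form of the −165-kb enhancer of Zeb2, which encodes a repressor that binds E-boxes, either WT or the variant labelled DE. H3K4me2, a mark of promoters and enhancers, was profiled in 2 WT and 2 DE libraries of batch 2. H3K4me3, a mark of active promoters, was profiled in 1 WT library of batch 1. The labels give no age and do not say what DE stands for or whether replicates came from separate animals, so a spread between replicates may be technical. As H3K4me3 is from another batch, mark and batch cannot be told apart. An IgG library of WT cMoPs and an MDP H3K4me3 library were not analysed here.

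C/EBP proteins are basic leucine zipper factors that bind DNA as pairs with each other or with related zipper proteins. In the bone marrow C/EBPα is needed for the step from early progenitors to granulocyte and monocyte precursors, and C/EBPε for the late granules of neutrophils. C/EBPβ and C/EBPδ respond to inflammatory signals and act in monocytes and macrophages, and C/EBPγ lacks a strong activation domain and pairs with the others. C/EBP sites have also been described in the Zeb2 enhancer region, where C/EBP proteins compete with NFIL3.

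The start sites were the first place to look for the marks. The RefSeq promoter set used here gives a start and strand for 3 of the 5 members (Cebpa, Cebpb and Cebpg, GRCm38.p6, the mm10 assembly). The 250 bases before the start are printed for Cebpa, called in every list, and Cebpg, the member with the fewest peaks, 5′ to 3′ on the gene's strand. Capitals mark the stretch that holds the strongest summit, the point of highest signal, of each H3K4me2 peak that covers the start.

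Cebpa, chr7:35119043-35119292, plus strand: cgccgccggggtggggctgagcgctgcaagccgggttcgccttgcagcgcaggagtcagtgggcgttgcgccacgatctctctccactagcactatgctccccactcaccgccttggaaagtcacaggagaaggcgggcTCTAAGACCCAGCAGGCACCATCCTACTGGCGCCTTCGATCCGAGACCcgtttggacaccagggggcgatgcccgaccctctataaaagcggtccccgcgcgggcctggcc
Cebpg, chr7:35056567-35056816, minus strand: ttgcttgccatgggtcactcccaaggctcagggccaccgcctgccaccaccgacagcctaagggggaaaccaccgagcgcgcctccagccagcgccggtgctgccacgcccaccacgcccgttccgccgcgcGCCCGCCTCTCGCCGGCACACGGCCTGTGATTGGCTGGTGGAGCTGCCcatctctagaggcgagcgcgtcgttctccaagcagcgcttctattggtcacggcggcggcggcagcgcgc

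Counted from the start, the strongest Cebpa summits were at −111 and −75 in the WT libraries (replicates 1 and 2, the order kept throughout), at −64 and −89 in the DE libraries and at −66 for H3K4me3. Those of Cebpg were at −99 and −118 in WT and at −71 in DE replicate 1. The H3K4me2 summits of each of these genes fell in a stretch of 48 bases. At Cebpb they were spread from −230 to 57.

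Cebpb had the most GC-rich of these 3 promoters. GC made up 81.6% of its 250 bases, more than in 99.3% of the 32851 promoters of the table, against 70.8% for Cebpg and 66.4% for Cebpa (the median promoter has 52.4%). On either strand CCAAT occurred at Cebpg alone, read as ATTGG at −89 to −85, inside the capitals, and at −28 to −24. The table's share with CCAAT is 33.8%. The motifs TTGCNNAA (the C/EBP core), CANNTG (any E-box), CACCTG (an E-box form bound by ZEB and E proteins, itself a case of CANNTG) and TGACGTCA (the CRE) did not occur in these 250 bases of Cebpa, Cebpb or Cebpg. They occur in 9.56%, 66.2%, 17.2% and 1.55% of the table's promoters. A match or its lack in this window describes its letters only.

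H3K4me2 peaks in the C/EBP windows numbered 31 and 28 for WT, 23 and 18 for DE, and H3K4me3 peaks 12. Both DE libraries had fewer peaks than both WT libraries, 20.5 ± 3.54 against 29.5 ± 2.12 (SD, n = 2 each, exact two-sided permutation p = 0.33). With 2 libraries per genotype no such test can give a smaller p, and this holds for every permutation test below. The whole lists were shorter too, 32354 and 28152 peaks for WT against 21968 and 17079 for DE, and read totals are not in the files. With every list limited to its 17079 strongest peaks, the windows held 23 and 17 for WT against 17 and 18 for DE, so the genotypes overlapped (exact permutation p = 1). Per 1000 peaks of the list the windows held 0.958 and 0.995 in WT and 1.05 in each DE library, a difference of 0.0741 whose direction turned with other settings (−0.146 with lists of equal length, −0.0223 with peaks kept from a −log10 q of 5). The bases covered were 6405 and 7777 for WT against 8028 and 6190 for DE, so the genotypes overlapped.

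**Figure D1:**
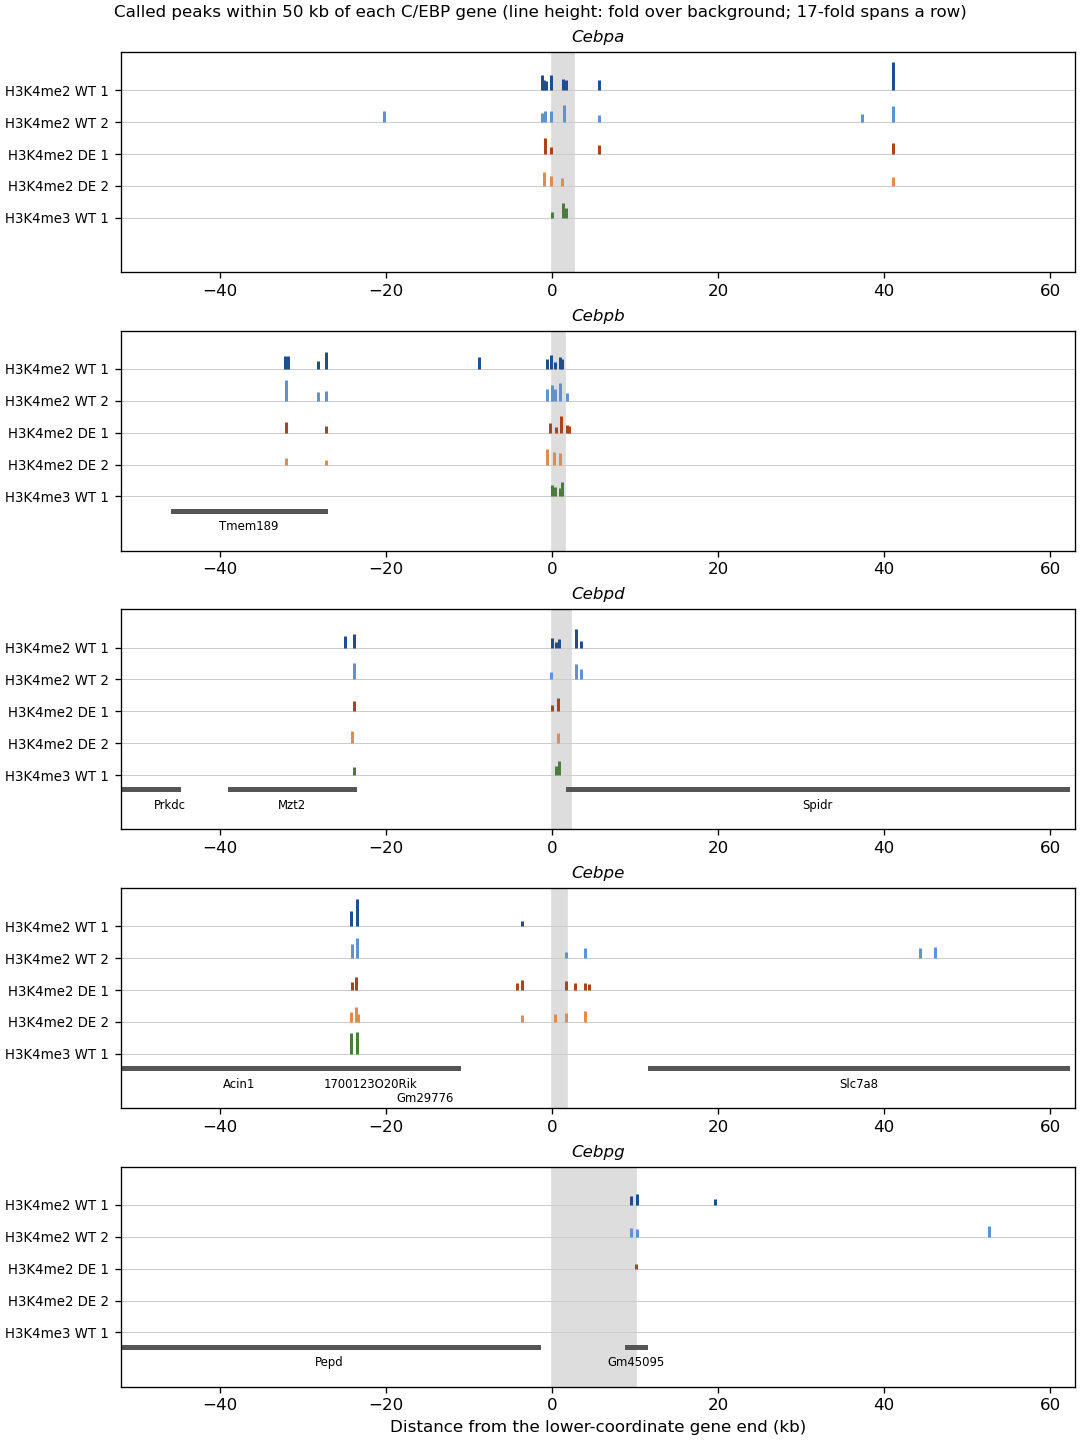
Peaks called within 50 kb of each C/EBP gene, 1 row per library. The x axis is the distance from the gene end at the lower coordinate in kb, line height is the fold over background at the peak's strongest summit, grey is the C/EBP gene and dark bars are neighbouring protein-coding genes. Peaks cluster at the genes themselves and at ends of Tmem189, Mzt2 and Acin1, and the tallest line is the 16.98-fold peak about 41 kb past the Cebpa start in WT replicate 1.

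Overlapping peaks of the 4 H3K4me2 lists were joined into 35 regions. For 22 of them the nearest end of a protein-coding gene was that of a C/EBP gene, whether or not the region lay inside another gene. Of the 35, 10 were called in all 4 lists (30.2% of all 39395 autosomal regions were). In both WT and neither DE library 4 were called (8.77% of all regions), in both DE and neither WT library 0 (1.10%), and in 1 library alone 12 (42.5%). An H3K4me3 peak lay in 8 of the 35 (14.5% of all regions). With lists of equal length the WT pattern had 1 region and the DE pattern 3. These shares were not tested. Of 20665 autosomal protein-coding genes the median had 4 regions within 50 kb. Cebpg had 4, Cebpd 6, Cebpa 7, Cebpb 8 and Cebpe 11, the last more than 85.8% of genes.

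Cebpa (gene ID 12606, chr7:35119293-35121928) carried H3K4me2 in 4 places at the gene. The region over its start, 35118873 to 35119378, was called in all 4 lists, and by −log10 p it ranked among the top 5.73% and 8.64% of WT peaks and the top 19.7% and 5.13% of DE peaks. Its fold over background, as the authors' caller gave it, was 9.22 and 6.83 for WT against 4.11 and 6.07 for DE. Among the 11891 regions called in all 4 lists it stood at the 85.5th and 80.1st percentile in WT and the 65.1st and 92.7th in DE, where 100 is the strongest. The WT values lay between the DE values. It was the strongest of the 10 shared regions of the windows by mean percentile, 80.9.

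Upstream, a region at −1261 to −604 of the Cebpa start (35118032 to 35118689) was also called in all 4 lists. Its percentiles were 49.5 and 34.2 for WT against 66.6 and 70.1 for DE. Both DE values were above both WT values, as they were for 21.0% of all shared regions. A summit recurred in it at −1162 and −1156 for WT against −1131 and −1158 for DE. No H3K4me3 peak was called there.

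Inside the Cebpa gene, a region 1001 to 1708 bases past the start had folds of 6.86 and 10.2 for WT and 4.98 in DE replicate 2, and was not called in DE replicate 1. The H3K4me3 list had 3 peaks at Cebpa. The one over the start had a fold of 3.67, below the 8.76 and 5.93 of the pair inside the gene. A region 2902 bases past the far gene end (35124830 to 35125029) was called in all but DE replicate 2, with folds of 6.09 and 4.51 in WT and 5.34 in DE.

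The far side of Cebpa holds a known enhancer, which lies about 37 kb past the start and drives the gene in myeloid progenitors. The files used give no coordinates for it. Within 35 to 39 kb of the start, 1 region was called, 37271 to 37408 bases past it (35156564 to 35156701, inside the lncRNA gene Gm35889), in WT replicate 2 alone with a fold of 4.61. A broader region, 40534 to 41588 bases past the start (35159827 to 35160881, inside the lncRNA gene Gm38988), was called in all 4 lists. At 1055 bases it was the second longest of the 35 regions. Its folds were 16.98 and 9.77 for WT against 6.74 and 5.54 for DE, so that both DE values were below both WT values. Folds are relative to each library's own background, however, and the percentiles were 91.0 and 44.1 for WT against 46.0 and 46.5 for DE. By percentile WT replicate 1 stood alone, and WT replicate 2 lay just below both DE libraries.

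Cebpe (gene ID 110794, chr14:54710363-54712174) was the member with more peaks in DE. Within 5 kb of the gene, 1 and 2 peaks were called for WT and 6 and 4 for DE (means 1.5 ± 0.707 and 5 ± 1.41, SD, n = 2 each, exact permutation p = 0.33). They covered 87 and 241 bases in WT and 1210 and 900 in DE. In peaks and bases both DE libraries were above both WT libraries although their lists were shorter. Over the whole lists the median peak was 152 and 212 bases long in WT and 249 and 246 in DE. The part of this length in the covered bases was not tested. Every region within 5 kb that was called in both DE libraries was also called in a WT library. More peaks within 5 kb in both DE than in both WT libraries were found at 161 of 20665 genes (0.779%), and at 13 genes, Cebpe among them, the lower DE count exceeded the higher WT count by 2 or more. Cebpe was singled out, and the 5 kb window chosen, after these values were seen.

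The Cebpe peaks were weak. Of the 13 within 5 kb, the highest fold was 6.63, and their ranks ran from the top 46.0% to the top 97.4% of their lists. Restricted to a −log10 q of 5 or more, 0 and 1 peaks were counted for WT and 1 in each DE library, so that the genotypes overlapped in number. The bases covered under this limit were 0 and 115 for WT against 328 and 245 for DE and did not overlap (exact permutation p = 0.33). Each value above 0 came from 1 peak. The peaks of WT replicate 2 and DE replicate 2 lay in the same region (54714143 to 54714392). That of DE replicate 1 lay over the gene end at the higher coordinate. With lists of equal length the counts were 0 and 0 for WT against 3 and 4 for DE, and 4.04% of genes then had more peaks in both DE libraries. The lower DE count then exceeded the higher WT count by 3 at Cebpe, and by 3 or more at 11 of the 20665 genes, Cebpe included. The region over the gene end at the higher coordinate (54711899 to 54712226) was called in WT replicate 2 with a fold of 3.86 and in DE with 5.06 and 5.38. Its summits were at 54711965 in WT replicate 2, 54711987 and 54712164 in DE replicate 1 and 54711976 in DE replicate 2. A region 1969 bases beyond that end (54714143 to 54714392) had folds of 6.21 in WT replicate 2 and 4.06 and 6.63 in DE. Regions at 54713012 to 54713146 and 54714691 to 54714862 were called in DE replicate 1 alone, with folds of 3.87 and 3.67. One inside the gene (54710597 to 54710748) was called in DE replicate 2 alone with a fold of 4.70.

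An enhancer of Cebpe has been described about 6 kb past its start. The gene table used gives no strand for Cebpe. A region 5298 to 5531 bases below the higher-coordinate end, past the other gene end (54706643 to 54706876) had folds of 3.39 in WT replicate 1 and 5.92 and 3.90 in DE, and was not called in WT replicate 2. Another, 6003 to 6148 bases below that end (54706026 to 54706171), was called in DE replicate 1 alone with a fold of 4.25. No H3K4me3 peak lay within 5 kb of Cebpe. The pair of H3K4me3 peaks in its window, 12.2-fold and 12.7-fold, lay over ends of 1700123O20Rik and Acin1 at least 23 kb away. H3K4me2 was called there in all 4 lists. The Acin1 region had percentiles of 89.2 and 60.1 for WT against 60.1 and 79.3 for DE, and the 1700123O20Rik region 49.5 and 39.7 against 17.2 and 52.8, so the genotypes overlapped at both. A further 2 regions in the window, inside the transporter gene Slc7a8, were called in WT replicate 2 alone.

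Granulocyte genes are targets of C/EBP proteins, and gene-end calls (a peak within 1 kb of either end) of 14 such genes were 6 and 6 for WT against 7 and 9 for DE. Over all genes the shares with a gene-end call were 49.5% and 50.5% for WT against 46.2% and 41.6% for DE. The primary granule genes Mpo, Elane, Prtn3 and Ctsg were called in all 4 lists, S100a8, a calcium-binding protein of neutrophils, in both DE lists alone (0.223% of genes), and Csf3r, the G-CSF receptor, in DE replicate 2 alone. Ltf, a secondary granule gene, was called in WT replicate 1 alone, and Camp, Ngp, Mmp8 and S100a9 in none. Gfi1 was called in all 4 lists, Lcn2 in all but WT replicate 1 and Cxcr2 in DE replicate 2 alone. Whether granulocyte-lineage cells in the sort had a part in the calls at Cebpe was not tested, and in bulk samples more cells with a mark and more mark per cell cannot be told apart.

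**Figure D2:**
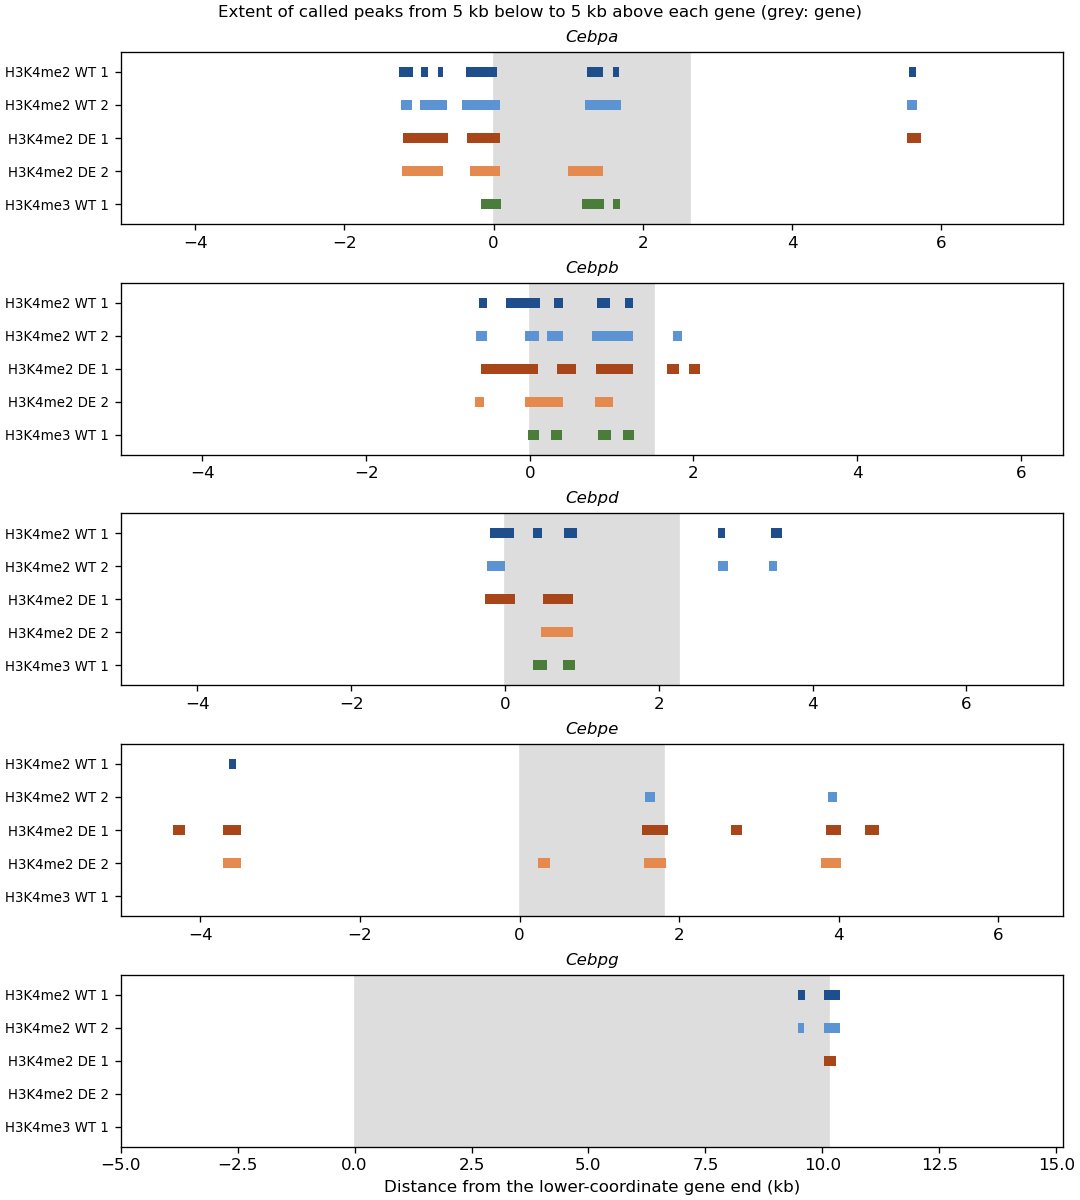
Extent of each called peak from 5 kb below to 5 kb above the 5 C/EBP genes (grey), 1 row per library. The x axis is the distance from the gene end at the lower coordinate in kb. H3K4me2 and H3K4me3 bars stack inside Cebpb, Cebpe has more bars in the DE rows (6 and 4) than in the WT rows (1 and 2) and none for H3K4me3, and the bars past Cebpd are in the WT rows alone.

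Cebpb (gene ID 12608, chr2:167688915-167690432) was the member most fully covered. H3K4me2 covered 32.8% and 53.8% of its length in WT and 52.4% and 42.1% in DE, and H3K4me3 covered 34.9%. No other member passed 22.8% in any list. The genotypes overlapped. Both of its main regions were called in all 4 lists and carried H3K4me3. The first, from −670 to 564 of the start (167688245 to 167689479), was the longest of the 35 regions at 1235 bases. Its percentiles were 41.6 and 28.6 for WT against 21.3 and 70.6 for DE, with DE replicate 2 far above the others.

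The second Cebpb region, 755 to 1267 bases past the start (167689670 to 167690182), had percentiles of 33.2 and 34.6 for WT against 61.9 and 40.9 for DE. Both DE values were higher than both WT values. One of its summits was 942 and 912 bases past the start in WT, 917 in each DE library and 939 for H3K4me3. The H3K4me3 list had 4 peaks, all overlapping the gene, with folds of 6.61, 5.60, 5.19 and 8.37 from its start to its far end. Just past the gene, a region at 167690594 to 167690770 was called only by WT replicate 2 and DE replicate 1, and one at 167690855 to 167691001 in DE replicate 1 alone.

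Within 50 kb Cebpb had 10 and 8 peaks in WT and 7 and 5 in DE, and within 5 kb 5 and 5 for WT against 5 and 3 for DE. The difference within 50 kb lay partly at Tmem189, a neighbouring gene upstream. The region over the Tmem189 end (167661480 to 167661951) had percentiles of 57.8 and 37.9 for WT against 31.6 and 6.71 for DE, both DE values below both WT values (19.3% of shared regions). A region inside Tmem189 (167660659 to 167660780) was called in WT alone, with folds of 4.74 and 5.32. Another there (167656629 to 167657146) was called in all 4 lists, with percentiles of 43.6 and 59.9 for WT against 46.2 and 13.5 for DE.

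Cebpd (gene ID 12609, chr16:15887286-15889545) differed between its ends. At the lower-coordinate end, the region 15887030 to 15887414 had folds of 5.50 and 4.68 in WT and 3.96 in DE replicate 1, and was not called in DE replicate 2. Inside the gene, 15887652 to 15888226 had folds of 4.81 in WT replicate 1 and 8.13 and 6.33 in DE, was not called in WT replicate 2, and held both H3K4me3 peaks of the gene (5.17-fold and 8.11-fold). The libraries that lacked a call differed between the end and the gene interior. The only region of the Cebpd window called in all 4 lists, over the end of Mzt2 (15862892 to 15863562), carried H3K4me3 and had percentiles of 42.3 and 63.8 for WT against 49.0 and 79.7 for DE, which overlapped.

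Beyond the higher-coordinate end of Cebpd, 2 regions were called in both WT libraries and neither DE library. The nearer, 513 bases past the gene at 15890058 to 15890189, had folds of 10.99 and 9.32, among the top 12.9% and 25.0% of WT peaks. By mean rank, 1.42% of all 3456 regions of this WT pattern were stronger. The farther, 15890716 to 15890890, had folds of 4.06 and 6.28, and 64.1% of such regions were stronger. Both lie inside Spidr, a gene of DNA repair by homologous recombination whose annotated span overlaps the end of Cebpd, so that the peaks cannot be assigned to either gene.

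Cebpg (gene ID 12611, chr7:35046422-35056566), 62.7 kb from Cebpa on the same chromosome, had the fewest peaks. Within 50 kb 3 and 3 were called in WT and 1 and 0 in DE. The region over its start (35056450 to 35056799) had folds of 6.22 and 4.39 in WT and 3.04 in DE replicate 1, with −log10 q of 11.7, 11.2 and 3.46. A second region, 509 to 673 bases past the start (35055893 to 35056057), was called in WT alone with folds of 5.02 and 5.002. Both also lie inside the overlapping gene Gm45095. Farther out, a peak 9484 bases from Cebpg was called in WT replicate 1 alone, and a peak between Cebpg and Cebpa (35098997 to 35099090), within reach of both windows and counted once in the total, in WT replicate 2 alone. No H3K4me3 peak was called within 50 kb of Cebpg, and the median over all genes is also 0.

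**Figure D3:**
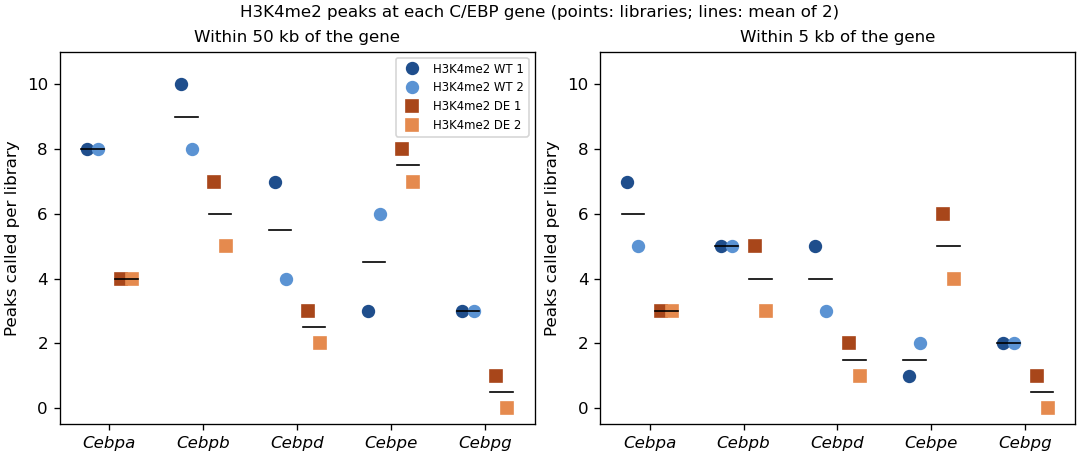
H3K4me2 peaks called per library within 50 kb (left) and 5 kb (right) of each C/EBP gene, with points for libraries and lines for the mean of 2 libraries. Cebpa, Cebpd and Cebpg have fewer peaks in both DE than in both WT libraries in both panels, Cebpb within 50 kb, and Cebpe has more in both panels.

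Set side by side, Cebpa (8 and 8 in WT, 4 and 4 in DE), Cebpb, Cebpd (7 and 4, 3 and 2) and Cebpg had fewer peaks within 50 kb in both DE than in both WT libraries, as did 34.2% of genes. Cebpe had 3 and 6 for WT against 8 and 7 for DE, a direction found at 0.634% of genes. Each of these 5 comparisons gave an exact permutation p = 0.33. The number of peaks also depends on how a region was divided. At Cebpa the region upstream of the start was split into 3 peaks in WT replicate 1, 2 in WT replicate 2 and 1 in each DE library. In the Cebpe window the region at the Acin1 end was split into 2 peaks in DE replicate 2 and was 1 peak in every other H3K4me2 library. With that region counted once, DE replicate 2 would not exceed the 6 of WT replicate 2 within 50 kb of Cebpe, so the genotypes would overlap there. The shortest peak of a list was 74 and 91 bases in WT and 109 in both DE lists, and the part of this gap in the counts was not tested.

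Over the 10 shared regions of the windows the median percentile was 49.5 and 41.9 for WT against 47.6 and 61.5 for DE, a difference of 8.86 (exact permutation p = 0.667). The genotypes overlapped. Of the 10, 1 had both DE values below both WT values, 2 above, and 7 overlapped. Without DE replicate 2 the difference was −1.77, and ranked by fold in place of −log10 p it was −2.54. With windows of 20 kb, which hold 4 shared regions, it was 26.98, from medians of 45.5 and 34.4 for WT against 63.5 and 70.4 for DE, which did not overlap (exact permutation p = 0.33).

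**Figure D4:**
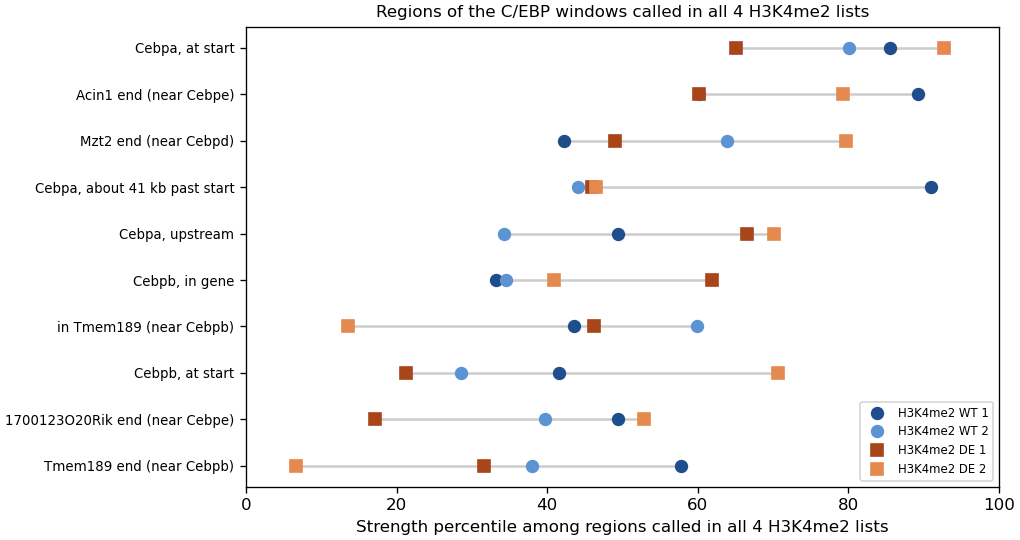
Strength percentile, on the x axis, of the 10 regions of the C/EBP windows called in all 4 H3K4me2 lists, among the 11891 regions so called, with 1 point per library and 100 the strongest. The start of Cebpa is the strongest by mean, WT replicate 1 stands apart at the region about 41 kb past the Cebpa start, and the WT and DE points overlap in 7 of the 10 rows.

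Genes that act with the C/EBP members were mostly called. Of 17 partners and other zipper genes, 14 and 16 had a gene-end call in WT and 15 and 14 in DE, 13 in all 4 lists (39.1% of genes were). Ddit3 (CHOP, a dominant inhibitor of C/EBP), Atf4, Atf3, Atf5 and Batf were called in all 4. Nfil3, the competitor at shared sites, was called in all but WT replicate 1. Batf3, a factor of conventional dendritic cells, was called in WT alone (3.03% of genes), and Batf2 in none.

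Of 14 regulators of C/EBP genes, 12 and 12 were called in WT and 10 and 12 in DE. The shares of all genes called were 49.5% and 50.5% for WT against 46.2% and 41.6% for DE. Spi1 (PU.1), Myb, Gata2, Gfi1, Flt3 and Trib1, an adaptor for the degradation of C/EBPα, were called in all 4 lists, and Runx1 in all but DE replicate 1. Trib2, a related adaptor, was called in both WT and neither DE list (3.03% of genes). Of 14 monocyte and macrophage targets, 6, 6, 7 and 6 were called in WT 1 and 2 and DE 1 and 2, near the shares of all genes. Csf1r, Cd14, Lyz2, Il6ra and Klf4 were called in all 4, and Itgam in DE replicate 1 alone. In none of the 4 were 7 of the 14 called, Nr4a1 and Ccr2 among them. Of 8 genes of the Zeb2 circuit 7, 8, 7 and 7 were called. Zeb2, Id2, Irf8 and Tcf3 were called in all 4, Nfil3 and Batf3 being the exceptions.

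Lineage markers were read the same way, beside shares of all genes of 49.5% and 50.5% for WT against 46.2% and 41.6% for DE. Of 8 cMoP markers 7 and 8 were called in WT and 7 and 6 in DE, Cx3cr1 in WT alone (3.03% of genes). Stem and early progenitor markers were called at 5, 5, 6 and 4 of 6 genes. B cell markers were called at 1, 1, 2 and 1 of 6, T and NK cell markers at 1, 0, 2 and 1, erythroid and megakaryocyte markers at 1, 2, 2 and 2, and mast, basophil and eosinophil markers at 0 in every list. Nkg7 and Klf1 were the markers of these other lineages called in both DE and neither WT list (0.223% of genes). Of 6 housekeeping genes 5 were called in each H3K4me2 list and 4 in the H3K4me3 list, and Actb in none, so a missing call does not show that a gene lacked the mark.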

How the data were processed

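Libraries were CUTAC of sorted cMoPs. The submitters' processing notes give mm10 as the build and, among the tools, Bowtie2 and MACS2 (version 2.2.9.1). For their settings and any control, the sources used here give nothing. Each deposited list is of 1 library. The authors' values per peak are a whole-number score (from the −log10 q), the fold over local background, a linear ratio, the −log10 p and −log10 q, and the summit offset, all as deposited. These served for ranking and filtering inside each list, and folds are also printed side by side between libraries without rescaling. The track line of DE replicate 1 names a second DE library, and its sample was taken from the series record.

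Summits sharing an interval were counted once, by their strongest p. Regions are the merged union of overlapping or touching autosomal H3K4me2 intervals, called at 1 bp of overlap. Strength percentiles rank the regions called in all 4 lists. Genes, starts and promoters came from RefSeq tables of GRCm38.p6. The exact two-sided permutation test ran over 6 assignments of 4 libraries. Depth is not in the lists, so no counting interval is given. Named were the 5 members, regions within 5 kb, and shared, genotype-specific or enhancer-range regions. Of each list up to 8 genes in list order were named, plus those with a genotype pattern. The granulocyte list was named in full. The members and lists were chosen with earlier results of these data known. The alternatives tried were a stricter −log10 q (5 or more), equal list lengths, windows of 20 and 100 kb, merging within 500 bp and 50% cover. Further ones were ranking by fold, only peaks with a member's end as the nearest gene end, a replicate block and each replicate left out in turn. The code was tested on simulated data. Analyses used Python 3.11.15, numpy 2.4.6 and pandas 2.3.3.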

Additional observations from a re-analysis of the deposited data

How the results depend on the processing

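The mean number of peaks was lower in DE under all 10 alternatives (−17.5 to −2.5 peaks). However, the genotypes overlapped with lists of equal length (exact permutation p = 1). They also overlapped with windows of 20 kb (22 and 17 for WT against 17 and 11 for DE, exact permutation p = 0.667). Counting only peaks whose nearest protein-coding gene end was that of a member gave 20 and 17 for WT against 17 and 11 for DE. These again overlapped (exact permutation p = 0.667). Peaks per 1000 turned from 0.0741 to −0.0223 at a −log10 q of at least 5, −0.146 with lists of equal length and −0.0965 with windows of 100 kb. Covered bases, 18 more in DE, turned to −1302.5 at a −log10 q of at least 5 and −1146.5 with 100 kb, and ran from −901 to 937 when a replicate was left out. The difference in median percentile, 8.86, was −2.54 by fold and ran from −1.77 to 8.35 when a replicate was left out. It was 26.98 with windows of 20 kb and 12.1 with lists of equal length, and in both the DE values lay above the WT values (exact permutation p = 0.33). Regions called in all 4 lists, 10, were 6 at a −log10 q of at least 5, 4 with 20 kb and 5 at 50% cover. Regions called in WT alone, 4, were 1 with lists of equal length, 8 with 100 kb and 5 to 8 when a replicate was left out. Regions called in DE alone, 0, were 1 at a −log10 q of at least 5, 3 with lists of equal length, 3 at 50% cover and 1 to 4 when a replicate was left out. Regions with H3K4me3, 8, were 5 with 20 kb. The causes were not tested, beyond fewer peaks or a smaller window leaving fewer regions (25 and 23 in place of 35).

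The higher peak count at Cebpe within 5 kb, 3.5, kept its direction under 7 alternatives added after seeing the data, 2.5 to 4.5 when a replicate was left out and 0.5 at a −log10 q of at least 5. Its covered bases, 891 more in DE, were 229 to 1046 more under the same alternatives. In the replicate block, pairing libraries by number, the value for peaks was −9 with an exact sign-flip p = 0.5, the smallest that 2 pairs allow, and no direction changed. Same-numbered libraries did not deviate together in strength percentile over 11891 regions (correlation −0.00861). Percentiles drop library-wide effects, so this cannot show whether same-numbered libraries were prepared together.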
